A study of Mus musculus with 8 samples.

Results

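The genes described here encode the cytokine BAFF, its closest relative APRIL and the receptors that bind them. They are Tnfsf13b (BAFF), Tnfsf13 (APRIL), Tnfrsf13c (BAFF-R), Tnfrsf13b (TACI) and Tnfrsf17 (BCMA). They were chosen by name, as the target of the injected antibody and the ligand and receptors closest to it, and not by their levels. All 5 were found among the 54532 genes of the count table, and all 5 passed the filter on low counts.

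BAFF and APRIL are TNF family ligands that act as trimers. BAFF is made mainly by myeloid cells and stromal cells, is placed on the cell surface and is cut free by a furin-type protease. APRIL is cut inside the cell and is held in tissue by heparan sulfate chains. BAFF-R binds BAFF alone and carries the survival signal of mature B2 cells through TRAF3, the kinase NIK and the alternative NF-kB pathway. TACI binds both ligands, is high on marginal zone and B1 cells and on some plasma cells, and has also been described on macrophages. BCMA binds APRIL more tightly than BAFF and is a receptor of plasma cells. An antibody that neutralizes BAFF leaves APRIL free to bind TACI and BCMA.

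RNA was sequenced from the stromal vascular fraction (SVF) of gonadal WAT, the pellet of cells left when the adipocytes of a collagenase digest have floated off. All mice were male C57BL/6J mice, 6 weeks old at the start per the labels, although the study's methods give other ages. They ate an HFD (fat as 60% of calories) during 12 weeks, were divided by a glucose tolerance test and were then moved to an NCD (fat as 16% of calories). At this change the injections began: the antibody against BAFF, Sandy-2, or an isotype control (IgG1k), at 2 mg/kg once in 2 weeks over 6 weeks, and the tissue was taken in week 18. There were 4 control Ab-treated mice (numbers 1, 2, 6 and 9) and 4 anti-BAFF Ab-treated mice (numbers 5, 7, 8 and 10), with 1 library each. No untreated mice and no mice kept on the HFD were analysed here, so all values refer to obese mice after the change of diet. The antibody binds the BAFF protein, so the Tnfsf13b transcript does not check the treatment.

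The libraries held 13562340 to 18548024 counts. Levels within a gene are given as CPM, with libraries scaled by TMM, and levels between genes as FPKM, which also divides by the gene length. At the smallest total, 3 counts equal 0.221 CPM, a floor that covers counting error only. Of 15963 genes tested with edgeR's quasi-likelihood test, 9 had lower and 0 had higher levels under anti-BAFF Ab at a Benjamini-Hochberg adjusted p of 0.05. The unadjusted p was under 0.05 for 198 lower genes (1.24%) and for 106 higher genes (0.664%). RNA of the epididymis, which lies against the gonadal fat pad, was present in every library. The summed level of its marker list ranged from 36.0 to 2217 CPM in the control Ab-treated mice and from 91.1 to 2406 CPM in the anti-BAFF Ab-treated mice, with the highest values in control mouse 2 and anti-BAFF mouse 7. Markers of the main cells of the SVF were abundant: the summed macrophage list was between 7886 and 12875 CPM, and the summed adipocyte progenitor list between 6331 and 8956 CPM.

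The stretches before the transcription starts are shown for BAFF and for its receptors, because the receptors are usually described together as B cell genes while the levels given below differ between them. The bases are those of RefSeq for GRCm38.p6, and each run holds the 250 bases before the annotated start, read 5′ to 3′ on the gene's own strand. Tnfrsf13c is on the minus strand at chr15:82224381-82224630, Tnfrsf13b on the plus strand at chr11:61126505-61126754, Tnfrsf17 on the plus strand at chr16:11313559-11313808 and Tnfsf13b on the plus strand at chr8:10006217-10006466. Capitals mark matches to the motifs searched.
Tnfrsf13c: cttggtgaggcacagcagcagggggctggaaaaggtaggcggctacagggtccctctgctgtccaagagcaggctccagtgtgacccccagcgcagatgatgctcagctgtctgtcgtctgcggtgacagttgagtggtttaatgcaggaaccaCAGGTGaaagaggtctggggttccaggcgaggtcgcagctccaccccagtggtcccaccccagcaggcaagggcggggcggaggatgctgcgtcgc
Tnfrsf13b: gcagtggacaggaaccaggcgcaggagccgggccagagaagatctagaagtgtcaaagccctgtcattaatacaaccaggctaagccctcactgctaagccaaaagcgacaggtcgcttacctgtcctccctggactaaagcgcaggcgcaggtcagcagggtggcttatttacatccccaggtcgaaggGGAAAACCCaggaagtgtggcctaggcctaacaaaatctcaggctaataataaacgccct
Tnfrsf17: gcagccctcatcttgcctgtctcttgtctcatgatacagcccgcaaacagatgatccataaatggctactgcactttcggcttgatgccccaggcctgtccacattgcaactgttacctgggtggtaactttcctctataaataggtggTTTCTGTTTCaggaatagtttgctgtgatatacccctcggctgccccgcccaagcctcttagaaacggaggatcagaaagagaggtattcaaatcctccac
Tnfsf13b: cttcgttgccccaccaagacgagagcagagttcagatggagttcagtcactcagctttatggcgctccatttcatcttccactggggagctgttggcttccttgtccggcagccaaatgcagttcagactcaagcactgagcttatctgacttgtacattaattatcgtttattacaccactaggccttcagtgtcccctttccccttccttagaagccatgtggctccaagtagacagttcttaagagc
On both strands, 5 motifs were searched, none of which overlapped another in these windows. They were the octamer ATGCAAAT, a PU.1 core GAGGAAGT, the E-box CACCTG, a pair of interferon regulatory factor sites (GAAA, any 2 bases, GAAA) and an NF-kB core GGGNNTTCC. In Tnfrsf13c, the capitals are the E-box on the opposite strand, 96 to 91 bases before the start, a motif held by 17.2% of 32817 windows of the same length. In Tnfrsf13b, they are the NF-kB core on the opposite strand, 60 to 52 bases before the start, which 4.97% of the windows held. In Tnfrsf17, they are the interferon regulatory factor sites on the opposite strand, 101 to 92 bases before the start, which 2.97% of the windows held. No match was found before Tnfsf13b or Tnfsf13, and the octamer (1.6% of windows) and the PU.1 core (2.44%) matched no member. The window of Tnfsf13 is not printed. Its annotated start lies 230 bases inside the gene as counted, so most of that window falls within the gene. Each match describes letters in its own window and was not tested as a binding site.

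Neither ligand passed the test. Both were measured in every mouse, and the mean of each under anti-BAFF Ab exceeded the control mean. The excess was less than the larger group SD, that of the control group for BAFF and of the anti-BAFF group for APRIL. It was more than the SD of the other group. Tnfsf13b (ENSMUSG00000031497, chr8:10006467-10039072, plus strand) encodes BAFF. In the control Ab-treated mice, it was 6.70 CPM in mouse 1, 7.27 in mouse 2, 11.1 in mouse 6 and 10.2 in mouse 9. In the anti-BAFF Ab-treated mice, it was 9.90 CPM in mouse 5, 8.84 in mouse 7, 9.72 in mouse 8 and 10.3 in mouse 10. The control Ab-treated mice formed a low pair and a high pair, and all anti-BAFF Ab-treated mice lay between these pairs or within the high one. The means were 8.81 ± 2.16 CPM (SD, n = 4) and 9.69 ± 0.621 CPM (SD, n = 4). The log2 fold change was 0.14 (SE 0.18, 95% interval -0.26 to 0.54), a fold of 1.10 with an interval from 0.834 to 1.45, and edgeR's quasi-likelihood test gave an unadjusted p of 0.453. The interval leaves room for a rise of at most 1.45-fold or a fall to 0.834 of the control level.

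Tnfsf13 (ENSMUSG00000089669, chr11:69682846-69685784, minus strand) encodes APRIL. Its levels in the control Ab-treated mice were 3.10 CPM in mouse 1, 2.96 in mouse 2, 2.93 in mouse 6 and 2.54 in mouse 9. In the anti-BAFF Ab-treated mice, they were 3.16 CPM in mouse 5, 2.82 in mouse 7, 4.05 in mouse 8 and 3.36 in mouse 10. Of the anti-BAFF Ab-treated mice, all but mouse 7 were above the highest control Ab-treated mouse, and the groups overlapped through that mouse. The means were 2.88 ± 0.240 CPM and 3.35 ± 0.518 CPM (SD, n = 4 each), the log2 fold change was 0.22 (SE 0.18, 95% interval -0.20 to 0.63), and the unadjusted p by edgeR's quasi-likelihood test was 0.270. These counts are uncertain. All 2939 bases of the gene lie within Tnfsfm13, a gene on the same strand that takes in Tnfsf13, and within the antisense gene Tnfsf13os. Tnfsfm13 had 48 to 78 counts per mouse and Tnfsf13os 10 to 19, and whether the counting used strand is not given in the sources used here. Their own log2 fold changes were 0.07 and -0.29, with unadjusted p of 0.708 and 0.309 by the same edgeR test.

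**Figure D1:**
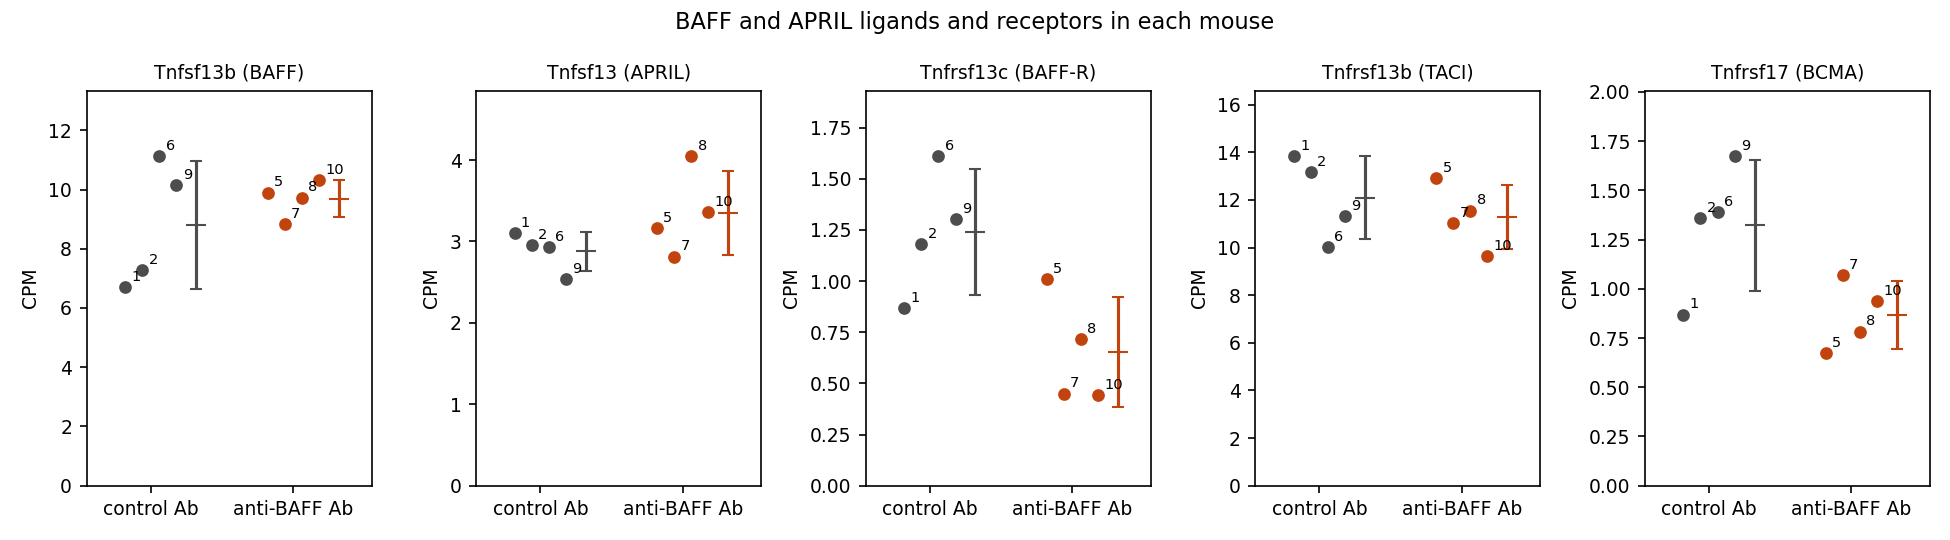
Level of each ligand and receptor gene in CPM (vertical axes, from 0, a separate scale per gene) in 4 control Ab-treated mice (grey) and 4 anti-BAFF Ab-treated mice (orange), with points numbered by mouse and bars giving the mean and SD. The groups overlap in all 5 panels, with means of 1.24 and 0.655 CPM for Tnfrsf13c and 12.1 and 11.3 CPM for Tnfrsf13b.

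Of the receptors, BAFF-R had the lowest mean level and the largest fold difference, although its CPM values overlapped those of BCMA. Tnfrsf13c (ENSMUSG00000068105, chr15:82221743-82224369, minus strand) had 14 counts in mouse 1, 20 in mouse 2, 22 in mouse 6 and 21 in mouse 9 of the control Ab-treated mice. These equal 0.868, 1.18, 1.61 and 1.30 CPM. In the anti-BAFF Ab-treated mice, it had 15 counts in mouse 5, 8 in mouse 7, 11 in mouse 8 and 8 in mouse 10, equal to 1.01, 0.450, 0.718 and 0.441 CPM. Mouse 5 lay above control mouse 1, and the other 3 anti-BAFF Ab-treated mice lay below every control Ab-treated mouse. With so few counts, the exact Poisson interval of a single mouse was wide, from 3.45 to 15.8 counts for a count of 8 and from 13.8 to 33.3 for a count of 22. The means were 1.24 ± 0.306 CPM and 0.655 ± 0.269 CPM (SD, n = 4 each), and the log2 fold change was -0.93 (SE 0.35, 95% interval -1.71 to -0.14), a fold of 0.527. The unadjusted p by edgeR's quasi-likelihood test was 0.0253, and the adjusted p was 1.0. The unadjusted p of this edgeR test was above 0.05 without anti-BAFF mouse 7 (0.0680) or 10 (0.0739), without control mouse 6 (0.0733) or 9 (0.0546), and without the pair of libraries richest in epididymis RNA (0.0950). Without anti-BAFF mouse 5 it was 0.00812.

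BCMA also had a lower mean under anti-BAFF Ab, with an interval that includes no change. Tnfrsf17 (ENSMUSG00000022496, chr16:11313812-11320074, plus strand) had 14, 23, 19 and 27 counts in control mice 1, 2, 6 and 9, equal to 0.868, 1.36, 1.39 and 1.67 CPM. In anti-BAFF mice 5, 7, 8 and 10 it had 10, 19, 12 and 17 counts, equal to 0.673, 1.07, 0.783 and 0.938 CPM. Control mouse 1 lay within the range of the anti-BAFF Ab-treated mice, and the other control Ab-treated mice lay above all of them. The means were 1.32 ± 0.334 CPM and 0.866 ± 0.174 CPM (SD, n = 4 each), and the log2 fold change was -0.60 (SE 0.28, 95% interval -1.24 to 0.04) with an unadjusted p of 0.0624 by edgeR's quasi-likelihood test. With 1 mouse omitted, this value lay between -0.77 (without control mouse 1) and -0.46 (without control mouse 9), with unadjusted p of 0.0181 and 0.173 in the same edgeR test, and the p was above 0.05 without any mouse other than control mouse 1.

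TACI was the most abundant of the receptors and showed nearly the same level in both groups. Tnfrsf13b (ENSMUSG00000010142, chr11:61126755-61149372, plus strand) was 13.8 CPM in mouse 1, 13.2 in mouse 2, 10.02 in mouse 6 and 11.3 in mouse 9 of the control Ab-treated mice. In the anti-BAFF Ab-treated mice, it was 12.9 CPM in mouse 5, 11.0 in mouse 7, 11.5 in mouse 8 and 9.65 in mouse 10. Control mice 1 and 2 lay above every anti-BAFF Ab-treated mouse, anti-BAFF mouse 10 lay below every control Ab-treated mouse, and the other mice lay in the stretch that both groups shared. The means were 12.1 ± 1.74 CPM and 11.3 ± 1.35 CPM (SD, n = 4 each). The log2 fold change was -0.10 (SE 0.14, 95% interval -0.42 to 0.22) with an unadjusted p of 0.491 by edgeR's quasi-likelihood test, and the interval of the fold was 0.748 to 1.16. Whether the receptors differed from each other in their change was not tested.

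Across the members, 0 of 5 passed an adjusted p of 0.05 by edgeR's quasi-likelihood test, where 0.0564% of all genes tested did. At an unadjusted p of 0.05, 1 of 5 passed, Tnfrsf13c, where 1.9% of all genes did. The groups overlapped for 5 of 5 members, while 1.48% of all genes had groups that did not overlap (0.952% lower and 0.526% higher). DESeq2 also called 0 after adjustment and 1 before it, and limma on log2(FPKM + 1) called 0 and 2, the second being Tnfrsf17. The p-values measure the spread between the mice of 1 experiment.

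B cell markers had lower levels in the same mice, and a bulk sample cannot tell fewer cells of a type from less RNA per cell. Of the 17 B cell genes tested, edgeR's test gave 12 lower and 0 higher with an unadjusted p under 0.05, where 1.24% of all genes were lower, and 0 with an adjusted p under 0.05. Their median log2 fold change was -1.04, against 0.00 over all genes. Cd79a, the signalling chain of the B cell receptor, was 10.6 ± 1.46 CPM in the control Ab-treated mice and 3.12 ± 1.51 CPM in the anti-BAFF Ab-treated mice (SD, n = 4 each), with a log2 fold change of -1.77. The B lineage factor Pax5 was 7.06 ± 1.06 and 2.44 ± 0.791 CPM. Further genes at that p were Ms4a1, Cd79b, Blk, Fcrla, Fcmr, Ly6d, H2-Ob, Cxcr5 and Ighd, with log2 fold changes from -2.04 for Ly6d to -0.53 for H2-Ob. For 7 of the 17 genes every anti-BAFF Ab-treated mouse lay below every control Ab-treated mouse, against 0.952% of all genes. Cd22 and Cd72, which had the highest CPM of the list without regard to gene length, had log2 fold changes of -0.18 and 0.06. Per gene length, Ly6d had the highest mean of the list in the control Ab-treated mice, 15.3 FPKM, with 3.72 FPKM in the anti-BAFF Ab-treated mice. Of 8 plasma cell genes tested, 2 were lower and 0 higher with an unadjusted p under 0.05 by edgeR's test, where 1.24% of all genes were lower. Their median log2 fold change was -0.16, with a highest value of 0.25. The lower genes were Jchain, which links IgM and IgA into polymers (log2 fold change -2.77, adjusted p = 0.0448 by edgeR), and Mzb1, a chaperone of immunoglobulin secretion (-2.07). The genes with the highest CPM of that list, Xbp1 and Sdc1, had 0.00 and 0.01, and both are also expressed by other cells.

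**Figure D2:**
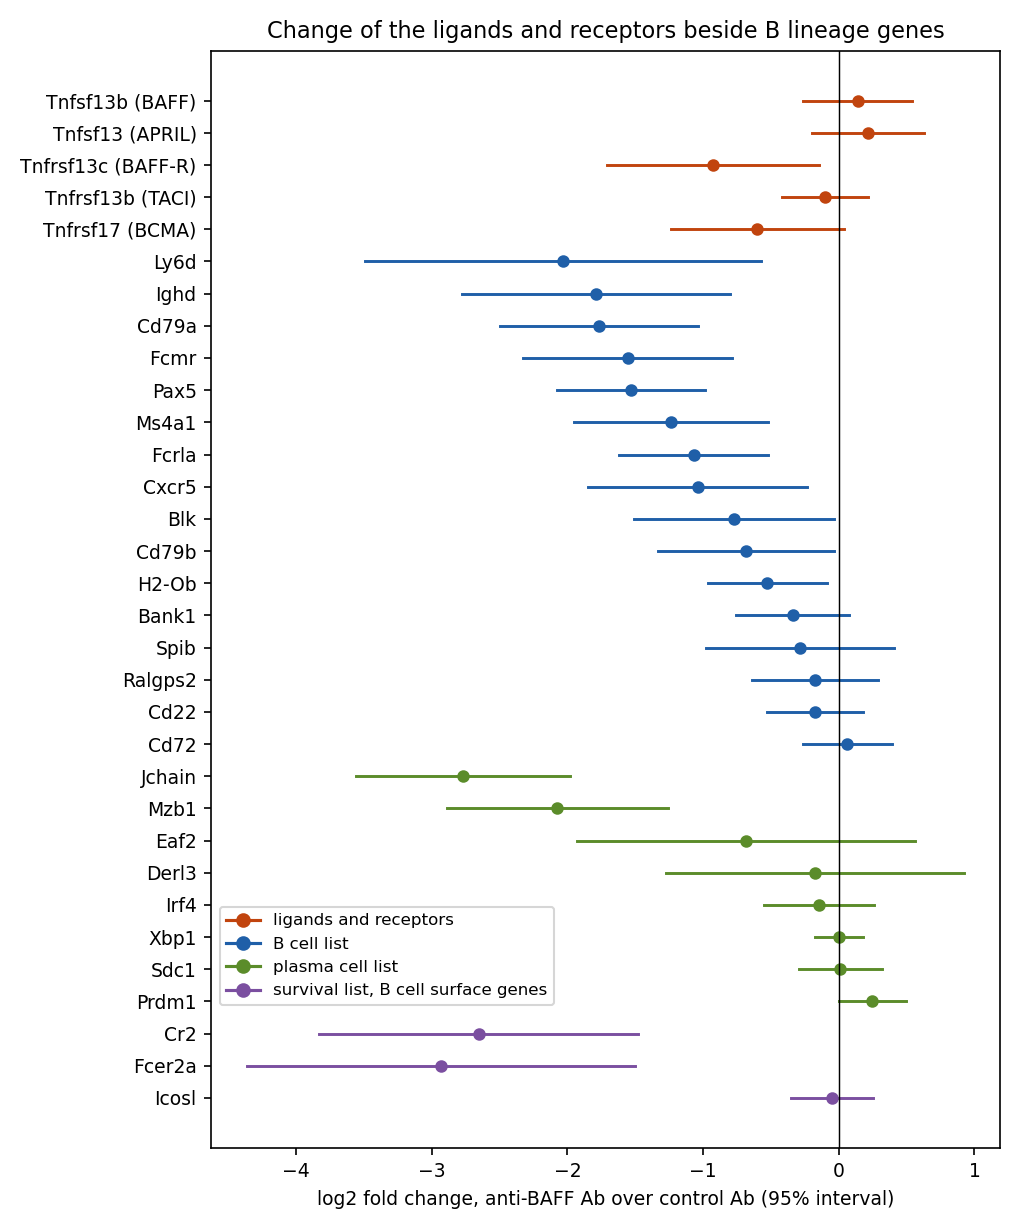
Log2 fold change of anti-BAFF Ab over control Ab (horizontal axis) with its 95% interval from edgeR. Shown are the ligands and receptors (orange), genes of the B cell list (blue), the plasma cell list (green), and Cr2, Fcer2a and Icosl of the survival list (purple). Of the purple genes, Icosl is at -0.05. Tnfrsf13b at -0.10 lies to the right of Cd79a at -1.77 and between Cd22 at -0.18 and Cd72 at 0.06. Tnfrsf13c at -0.93 also lies among the B cell genes.

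The receptors were then set against the B cell list within each mouse, as log2 CPM of the receptor minus the mean log2 CPM of the 17 list genes. This value shows whether a receptor moved with the mean of the list, and not with each of its genes. The list genes themselves ranged from a log2 fold change of -2.04 to 0.06. That of TACI, -0.10, lay between those of Cd22 (-0.18) and Cd72 (0.06). For BAFF-R it was -2.59 ± 0.25 in the control Ab-treated mice and -2.48 ± 0.18 in the anti-BAFF Ab-treated mice (SD, n = 4 each), a difference of 0.11 (exact permutation test, two-sided, p = 0.486). BCMA was at -2.51 ± 0.23 and -2.09 ± 0.62, a difference of 0.42 (exact permutation test, two-sided, p = 0.257). Of the receptors, only TACI had groups that separated. In the control Ab-treated mice, it was 1.12, 0.50, 0.27 and 0.46 above the list mean in mice 1, 2, 6 and 9, and in the anti-BAFF Ab-treated mice it was 1.20, 1.83, 1.39 and 1.38 above it in mice 5, 7, 8 and 10. The groups did not overlap, but control mouse 1 and anti-BAFF mouse 5 lay close to each other. The difference was 0.86 (exact permutation test, two-sided, p = 0.0286, the smallest that 4 mice against 4 can give). Against Cd79a and Cd79b alone, the difference was 1.18 for TACI, 0.43 for BAFF-R and 0.74 for BCMA (exact permutation tests, two-sided, p = 0.0286, 0.114 and 0.171). Without control mouse 2 and anti-BAFF mouse 7 it was 0.71 for TACI, 0.02 for BAFF-R and 0.14 for BCMA. The BCMA difference against the full list was 0.19 without anti-BAFF mouse 7 and 0.67 without anti-BAFF mouse 5, and that of BAFF-R lay between 0.03 without control mouse 2 and 0.22 without control mouse 6. How closely BAFF-R and BCMA followed the B cell genes thus depended on the reference genes and on single mice. Against the plasma cell list, the TACI difference was 0.64 (exact permutation test, two-sided, p = 0.0571), that of BAFF-R -0.11 (p = 0.629) and that of BCMA 0.20 (p = 0.486). With Benjamini-Hochberg adjustment over these 6 comparisons, both p-values of TACI became 0.171 in the exact permutation test, so the difference does not pass a correction for the number of comparisons. The mean of the B cell list itself was 3.01 ± 0.23 and 2.06 ± 0.36 log2 CPM (SD, n = 4 each), so the difference of TACI came with a lower list mean and not with a higher TACI level. The list mean alone gave a difference of -0.96 (exact permutation test, two-sided, p = 0.0286). The lists were chosen with earlier results of these data known, so the p-value of TACI is no separate evidence about TACI. The mean of the plasma cell list was 4.76 ± 0.14 and 4.02 ± 0.29 log2 CPM (SD, n = 4 each). Its lowest log2 fold changes were those of Jchain (-2.77) and Mzb1 (-2.07), against a list median of -0.16. The differences against this list thus rest largely on these genes. The part of other cell types that carry TACI was not tested.

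**Figure D3:**
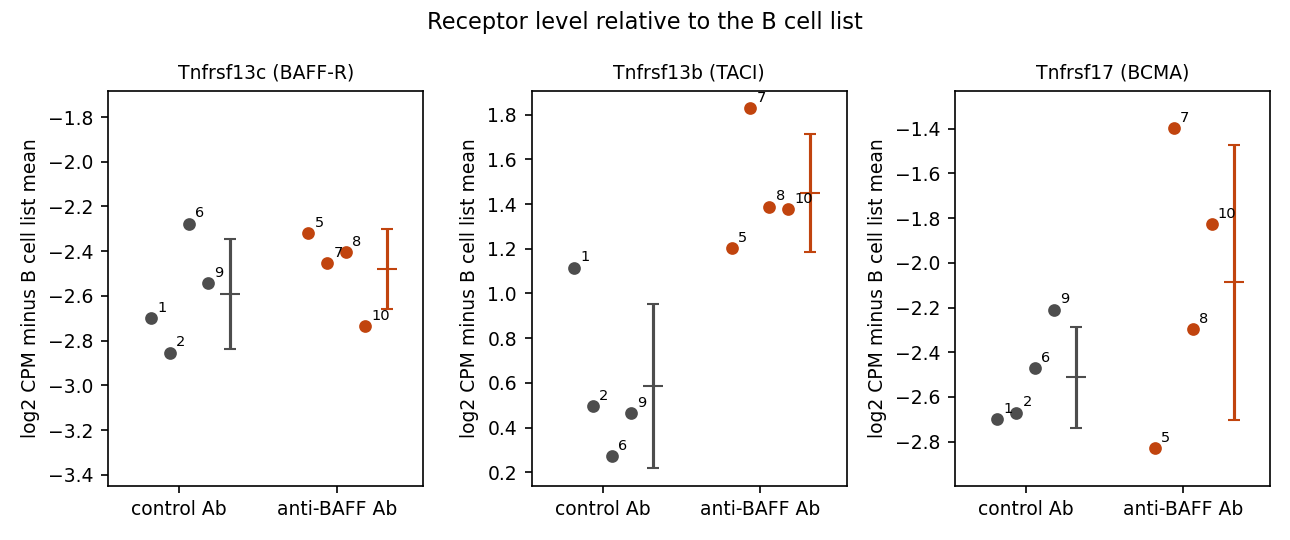
Log2 CPM of each receptor minus the mean log2 CPM of the B cell list (vertical axes, of equal span but not starting at 0) in each numbered mouse of both groups, with the mean and SD. For Tnfrsf13b every anti-BAFF Ab-treated mouse lies above every control Ab-treated mouse, with means of 1.45 and 0.59, whereas the groups overlap for Tnfrsf13c and Tnfrsf17.

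Per gene length, the order of the levels over all 8 mice was TACI, APRIL, BAFF, BCMA and BAFF-R. Tnfrsf13b was 4.12 ± 0.531 FPKM (SD, n = 8) and was above Tnfsf13, at 1.90 ± 0.274 FPKM, in 8 of 8 mice. Tnfsf13 was above Tnfsf13b, at 1.35 ± 0.225 FPKM, in 8 of 8 mice, by a ratio between 1.05 and 1.94. Tnfsf13b and Tnfrsf17, at 1.34 ± 0.426 FPKM, could not be ordered over all mice, since Tnfsf13b was the higher in 3 of 8 mice. These were anti-BAFF mice 5, 8 and 10. Tnfrsf17 was the higher in every control Ab-treated mouse and, at 1.31 against 1.29 FPKM, in anti-BAFF mouse 7. Tnfrsf13c was the lowest at 0.463 ± 0.201 FPKM, below Tnfrsf17 in 8 of 8 mice. This order depends on the gene lengths, 6868 bases for Tnfsf13b, 1637 for Tnfsf13, 2048 for Tnfrsf13c and 815 for Tnfrsf17. In CPM, Tnfsf13b was above Tnfsf13, with control means of 8.81 and 2.88 CPM. Also in CPM, Tnfrsf13c was above Tnfrsf17 in control mouse 6 and anti-BAFF mouse 5. The level of Tnfsf13 further rests on counts that are uncertain, as described above. TACI was expressed at a higher level than 49.1% of the genes tested, APRIL than 32.7%, BAFF than 26.2%, BCMA than 26.1% and BAFF-R than 10.2%. The members were thus low to moderate in SVF RNA.

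TACI made up most of the receptor RNA in every mouse. Its share of the summed receptor FPKM was 65.6 ± 8.29% in the control Ab-treated mice and 74.1 ± 3.02% in the anti-BAFF Ab-treated mice (SD, n = 4 each). The share of BCMA was 24.98 ± 6.12% and 20.1 ± 4.99%, and that of BAFF-R 9.39 ± 2.70% and 5.87 ± 1.99%. The shares of each receptor overlapped between the groups, with control mouse 1 at 76.6% TACI, inside the anti-BAFF range. The receptor sum was 6.49 ± 0.379 FPKM and 5.36 ± 0.455 FPKM, and the ligand sum 3.04 ± 0.254 FPKM and 3.46 ± 0.367 FPKM. The groups did not overlap in the receptor sum, which ran from 6.03 to 6.89 FPKM in the control Ab-treated mice and from 4.77 to 5.88 FPKM in the anti-BAFF Ab-treated mice, and they overlapped in the ligand sum. Of all genes tested, 1.48% had groups that did not overlap. The separation of the receptor sum depended on the division by length, since the groups overlapped when CPM of the same receptors were summed. Division by length gives most weight to Tnfrsf17, with 815 bases and 10 to 27 counts per mouse. The ligand sum over the receptor sum was 0.451, 0.415, 0.565 and 0.453 in control mice 1, 2, 6 and 9, and 0.574, 0.554, 0.722 and 0.746 in anti-BAFF mice 5, 7, 8 and 10. Control mouse 6 lay between anti-BAFF mice 7 and 5, so the groups overlapped. BAFF over APRIL, as FPKM, was 0.740 ± 0.222 in the control Ab-treated mice and 0.699 ± 0.0847 in the anti-BAFF Ab-treated mice. These shares and ratios are descriptions without a test.

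**Figure D4:**
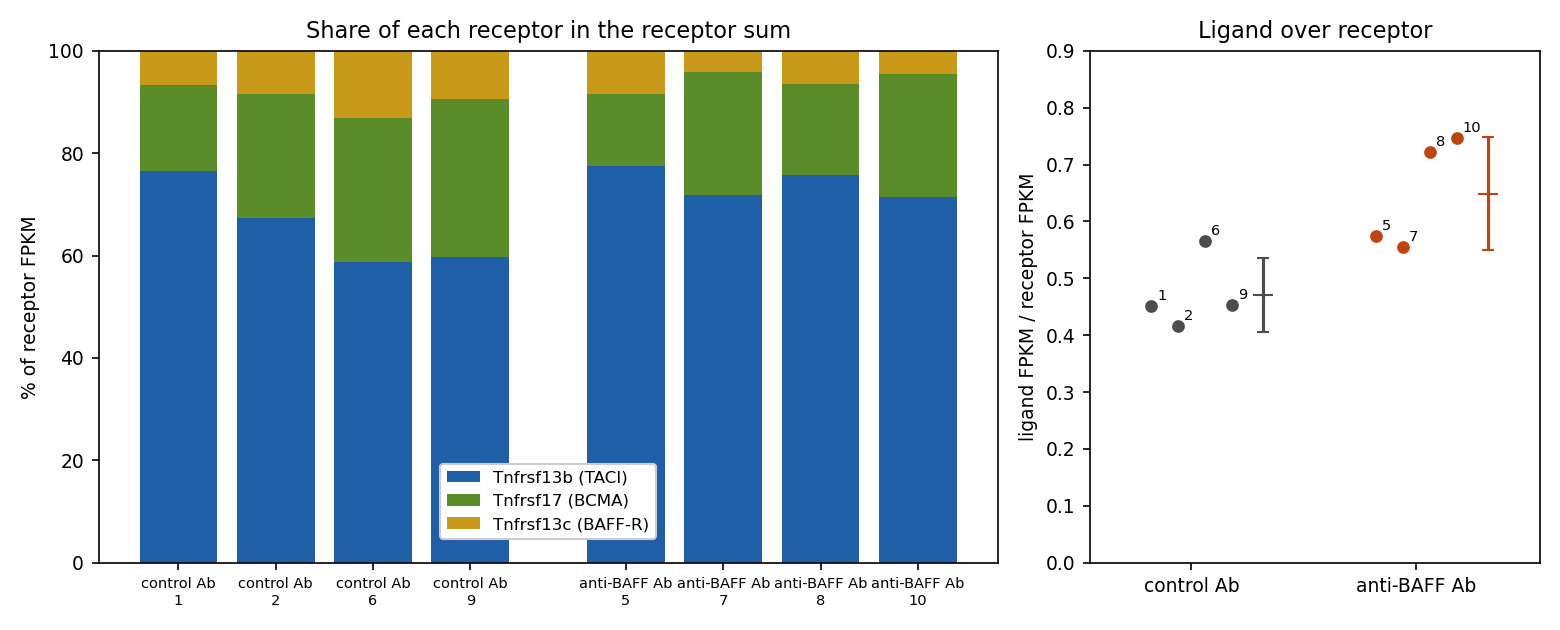
Left, the share of each receptor in the summed FPKM of the receptors (vertical axis, percent) in each mouse. Right, the summed FPKM of the ligands over that of the receptors (vertical axis, from 0) with the mean and SD, 0.471 in the control Ab-treated and 0.649 in the anti-BAFF Ab-treated mice. TACI is the largest share in all 8 mice.

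Downstream of the receptors, no change in the transcripts of the signalling chain was detected, and the activity of the chain was not measured. Of 20 listed genes, 19 were in the table and tested (Camlg was not found under that symbol), and 0 passed an unadjusted p of 0.05 in either direction by edgeR's test. They cover TRAF adaptors, the kinases NIK and IKK and the NF-kB subunits, with a median log2 fold change of 0.01 and a range of -0.10 to 0.18. The NF-kB subunit Nfkb1 was 255 ± 81.1 CPM in the control Ab-treated mice and 288 ± 91.9 CPM in the anti-BAFF Ab-treated mice, and Rel was 300.1 ± 75.4 and 297 ± 64.1 CPM (SD, n = 4 each). These genes are expressed by most cells of the SVF, and the share of B cells in their RNA is not measured here.

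In a list of 14 survival genes and surface genes linked to BAFF, edgeR's test gave 2 lower genes with an unadjusted p under 0.05, where 1.24% of all genes were lower, and 0 after adjustment. Both are surface genes of mature B cells. Cr2, the complement receptor CD21, was 1.20 ± 0.267 CPM in the control Ab-treated mice and 0.192 ± 0.189 CPM in the anti-BAFF Ab-treated mice (SD, n = 4 each). Fcer2a, the low affinity IgE receptor CD23, was 2.15 ± 0.484 and 0.280 ± 0.297 CPM, with log2 fold changes of -2.65 for Cr2 and -2.93 for Fcer2a. The anti-BAFF means are near the floor of 0.221 CPM, so these fold changes rest on few counts. The survival factor Mcl1 was 1283 ± 45.4 and 1262 ± 61.5 CPM, and the kinase Pim1 was 378 ± 76.5 and 388 ± 49.0 CPM. Every anti-BAFF Ab-treated mouse lay below every control Ab-treated mouse for 3 of the 14 genes, against 0.952% of all genes: Cr2, Fcer2a and Bcl2. Bcl2, named here after its values were seen, was 20.8 ± 0.566 and 18.6 ± 0.984 CPM, with a log2 fold change of -0.16 and an unadjusted p of 0.0886 by edgeR.

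The genes that free or hold the ligands and shed the receptors gave no call. Of 13 tested genes for proteases and gamma-secretase subunits, 0 passed an unadjusted p of 0.05 by edgeR's test in either direction, with a median log2 fold change of 0.04. Furin, which frees the ligands, was 298 ± 23.9 and 319 ± 36.8 CPM in the control Ab-treated and anti-BAFF Ab-treated mice (SD, n = 4 each), and the sheddase Adam17 was 149.9 ± 24.3 and 167 ± 4.95 CPM. Of 14 tested genes for heparan sulfate proteoglycans and the enzymes that build their chains, to which APRIL binds, 0 passed, with a median of 0.01. Hspg2 (perlecan) was 1482 ± 56.1 and 1521 ± 122.8 CPM, and Sdc3 (syndecan 3) was 519 ± 130.7 and 517 ± 30.3 CPM.

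Within the TNF superfamily, APRIL ranked 7 and BAFF 13 of 18 ligands by mean FPKM, and TACI ranked 12, BCMA 21 and BAFF-R 26 of 28 receptors. The leading ligand was Tnf at 72.5 FPKM, and the leading receptors were Tnfrsf1b at 146 FPKM and Tnfrsf1a at 121 FPKM, the receptors of TNF. Of the 38 other superfamily genes tested, 0 passed an unadjusted p of 0.05 by edgeR's test. Their median log2 fold change was 0.05, with a range of -1.15 for Cd40lg to 0.44 for Cd27.

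**Figure D5:**
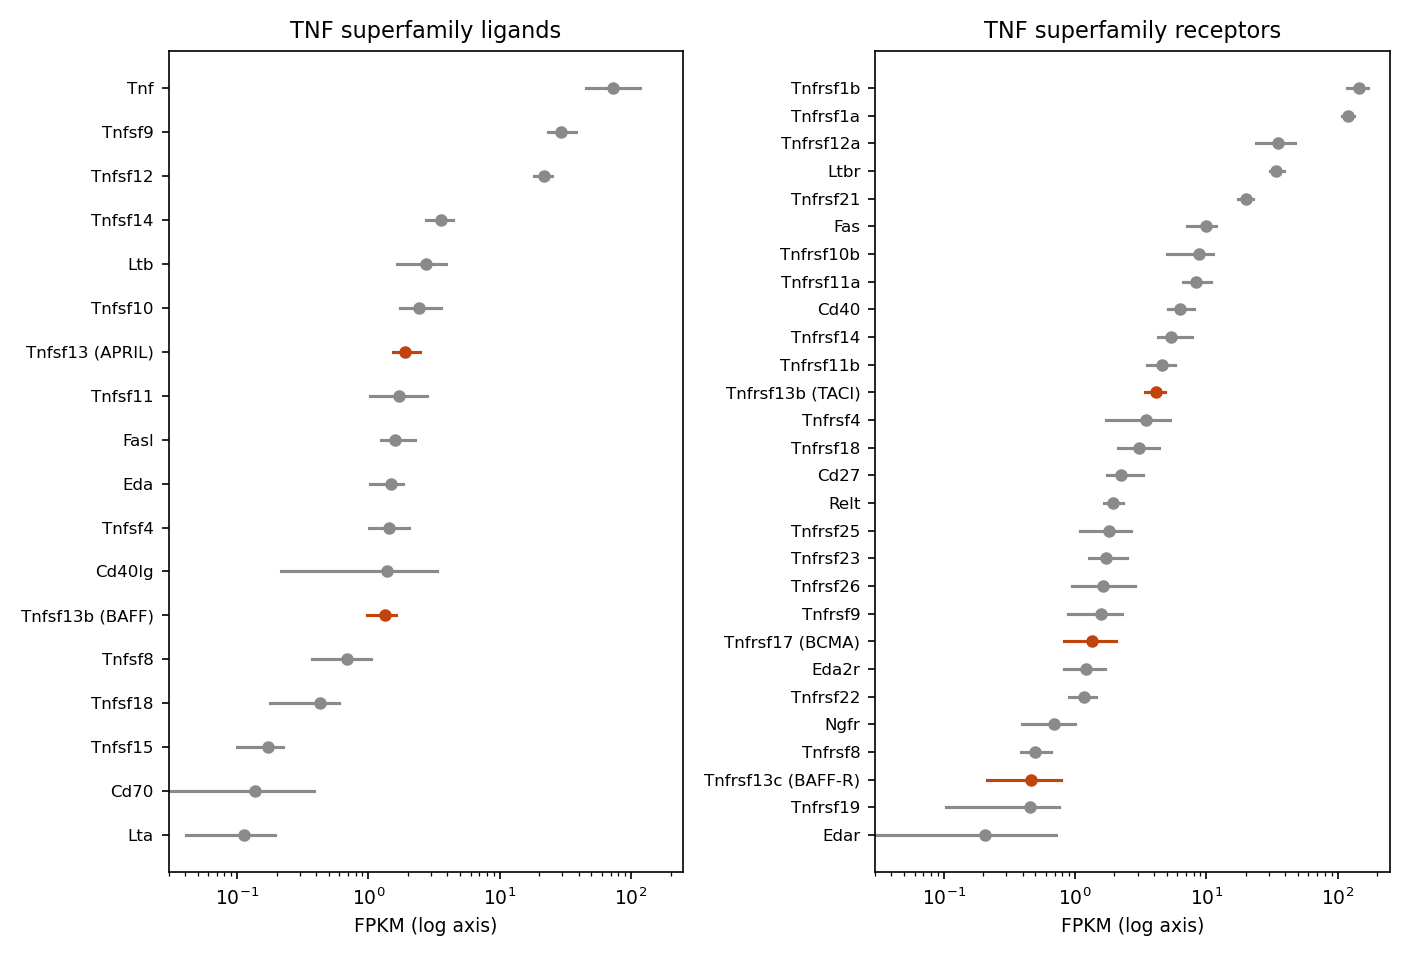
Mean FPKM over all 8 mice (horizontal log axis) of TNF superfamily ligands (left) and receptors (right), with bars from the lowest to the highest mouse and the 5 genes described in orange. Tnfrsf13b at 4.12 FPKM is near the middle of the receptors and Tnfrsf13c at 0.463 near the bottom. Cd70 and Edar are 0 in at least 1 mouse, so their bars run off the axis.

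Marker lists of other cell types that make or carry these proteins were read beside them. Macrophage genes (10 tested), dendritic cell genes (9) and T cell genes (8) had 0 genes past an unadjusted p of 0.05 in edgeR's test, with median log2 fold changes of 0.00, -0.12 and -0.19. The genes with the highest CPM had log2 fold changes of 0.00 (Lyz2) and 0.05 (Csf1r) among the macrophage genes, 0.10 (Fscn1) and -0.11 (Ccr7) among the dendritic cell genes, and -0.12 (Cd28) and -0.04 (Cd4) among the T cell genes. Of 6 neutrophil genes tested, 1 was higher and 0 were lower at that p, where 0.664% of all genes were higher, and their median log2 fold change was 1.34. The gene was S100a9, a calcium-binding protein of neutrophils and monocytes, with 42.3 CPM in the highest anti-BAFF Ab-treated mouse and 1.30 CPM in the lowest. Retnlg, of the same list, had a log2 fold change of -1.47, and Mmp9 and Csf3r, which had the highest CPM, had 0.37 and 0.53. The summed list was 278 CPM in anti-BAFF mouse 5 and between 56.1 and 89.1 CPM in the others. The BAFF level of mouse 5 was 9.90 CPM, within the range of its group. In the same mouse, BAFF-R was the highest and BCMA the lowest of the anti-BAFF Ab-treated mice. The part of neutrophil RNA in these values was not tested.

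For each member, the genes whose log2 CPM followed it most closely from mouse to mouse, after each group was centred on its mean, were listed as a description over 8 mice. For Tnfsf13b they were Eva1a (r = 0.99), Zc3hav1l (0.98) and Phlpp2 (0.98), and for Tnfsf13 they were Zkscan6, Eif4g3 and Cdc42bpb (0.97, 0.97 and 0.96). For Tnfrsf13c they were Gm49450, Phactr4 and Rpp40 (0.98, 0.97 and 0.96), and for Tnfrsf13b they were Acsf3, Ppie and Trpc4ap (0.98, 0.97 and 0.97). For Tnfrsf17 they were Prepl, Arfgef1 and Bend6 (0.98, 0.97 and 0.97). None is in the B cell or plasma cell list. Each is among the 3 highest of at least 14864 candidates over only 8 mice, whose libraries and depth all genes share.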

How the data were processed

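The authors made paired-end libraries of SVF RNA, sequenced them on a NovaSeq instrument and deposited raw counts per gene, with no normalization, in a table with 1 column per mouse. Gene coordinates, biotype and length stand beside the counts. The length, an other value in bases in the deposited table, was used to compute FPKM. The submitters' processing notes name the build mm10. The aligner, the counter, the annotation and the use of strand are not given in the sources used here. For expression the methods use FPKM, with an adjusted p and no named test.

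Mice were grouped and numbered by their labels. No library was a repeat of another (smallest chi-square per degree of freedom within a group 7.91), and the labels name no batch. Genes were filtered with filterByExpr (minimum count 10), scaled by TMM and tested with edgeR 4.0.16 in R 4.3.3 (quasi-likelihood, treatment as the only term, prior degrees of freedom 3.14), with Benjamini-Hochberg adjustment over 15963 genes. Log2 CPM values used a prior count of 2. The scripts were tested on simulated data before use. DESeq2 1.42.0 and limma 3.58.1 were alternatives. Values per mouse were compared by exact permutation tests in Python 3.11.15 with scipy 1.17.1.

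The genes and lists were chosen with earlier results of these data known. Named genes are the members, rows overlapping them, the 3 genes most like each, and, from each list, genes past an unadjusted p of 0.05 and the 2 with the highest CPM. Of the lists given below by their counts, no gene is named, and some others are named as examples of a list's range. The alternatives were RLE, upper quartile and library size scaling, DESeq2, limma with pseudocounts of 1 and 0.1, the robust option, other filters, and leaving out each mouse. The endothelial, mesothelial, adipocyte, adipocyte progenitor and epididymis lists, with 7, 6, 7, 9 and 7 genes tested, had 0 genes past an unadjusted p of 0.05 in edgeR's test. The values of 1 gene of the B cell list are not reported here.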

Additional observations from a re-analysis of the deposited data

Results flagged for a closer look

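The level of Tnfrsf13c (BAFF-R) against the plasma cell list held a mouse far from its group. In anti-BAFF mouse 5, log2 CPM of Tnfrsf13c minus the mean of the list was -3.72, the highest of 4 mice, with a gap to the next mouse of 0.871 of the range of the group. The other mice of the group went down to -4.74. Of 30 groups of 4 mice checked in this way, 1 stood out, where chance gives about 1.5. The same mouse had the highest summed neutrophil markers.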

How the results depend on the processing

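No paired analysis was possible because the mouse numbers of the labels differ between the groups. Genes with an adjusted p under 0.05 numbered 9 in the reported fit, 67 with DESeq2, 19 without a filter on low counts, 2 with the robust option, 2 with limma on log2(FPKM + 0.1) and 3 without control mouse 2 and anti-BAFF mouse 7, a choice made after seeing the data. DESeq2 was run on 30723 genes, against 15963 in the reported fit. In simulated data with 200 changed genes, the median share of false calls at this threshold was 20.7% for DESeq2 and 4.74% for edgeR. These were 3 simulations of 15963 genes, with dispersions fitted by edgeR and an absolute log2 fold change of 2. This setting differs from the DESeq2 fit above, so the shares do not give how many of its 67 genes are false. Leaving out each mouse gave 2 to 9 genes: 9 without control mouse 2, 5 without control mouse 9 and 2 without any other. The causes were not tested. No member passed an adjusted p of 0.05 under any of these alternatives, and the log2 fold change of each member kept its sign in all of them. For Tnfrsf13c it ranged from -1.22 to -0.77 over mice left out, and was -0.29 with limma on log2(FPKM + 1), a scale that shrinks low genes. Leaving out a mouse moved the TACI difference against the B cell list from 0.86 to between 0.74 and 1.04. The difference of BAFF-R against the plasma cell list, -0.11, lay between -0.35 and 0.00 over mice left out. Depth limits BAFF-R and BCMA most, with 8 to 27 counts per mouse.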
